A study of Mus musculus with 3 samples.

Results

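Platelets carry RNA that they inherit from megakaryocytes, and the genes described here encode the proteins that switch platelet integrins on from inside the cell. The set holds 10 genes, chosen by symbol for their role and matched by Entrez number: Rap1b, Rap1a, Rasgrp2, Rasa3, Apbb1ip, Tln1, Fermt3, Ilk, Lims1 and Parvb. All 10 were among the 9822 genes of the count tables. RNA sequencing was done on platelets purified from blood of male BALB/c mice, 20 weeks old and Nxf1 wild type, in 3 libraries of a single group (replicates 1 to 3). Every library is labelled as a separate batch, so library and batch cannot be told apart. Nothing in them says that each library came from a separate animal, so an SD or a p-value here measures the spread between these libraries, which may be technical.

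When a platelet meets an agonist, calcium and diacylglycerol activate RASGRP2 (CalDAG-GEFI), which loads the small GTPase Rap1 with GTP. Active Rap1 brings talin to the tail of the integrin beta chain, where kindlin-3 also binds, and the receptor for fibrinogen opens. RASA3 turns Rap1 off and keeps circulating platelets quiet. Kindlin is tied to actin through a complex of ILK, PINCH and parvin. RIAM, encoded by Apbb1ip, is an adaptor that links Rap1 to talin in leukocytes.

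Total counts were 26974129, 25189231 and 26111636 in replicates 1, 2 and 3, and 3 counts, the most that a reading of 0 leaves possible, were worth 0.111 to 0.119 CPM (counts per 1000000 counted reads). No library repeated another: chi-square values per degree of freedom lay between 17.9 and 103.6 for the 3 pairs. Markers of platelets were present for 11 of 11 genes, at a median of 1246 CPM per 1000 bases of gene length. Red cell markers stood apart in replicate 1, at a summed 48712 CPM against 5217 and 6803 CPM in replicates 2 and 3. Summed T cell markers were at 31.1, 32.0 and 48.3 CPM, and summed B cell markers at 222, 216 and 354 CPM. In such bulk samples, fewer cells of a type and less RNA per cell cannot be told apart.

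The inside-out genes were among the most abundant platelet RNAs, with 1 exception. Together they took 1.34%, 1.34% and 1.45% of counts in replicates 1, 2 and 3 (exact Clopper-Pearson 95% intervals 1.336% to 1.345%, 1.335% to 1.344% and 1.450% to 1.459%, covering counting error only), a mean of 1.38% ± 0.0662 (SD, n = 3). All 10 reached 1 CPM in every library, as did 77.7% of all genes in the tables. Their median was 311.9 CPM per 1000 bases, against 1.49 over all genes. Parvb stood highest and Apbb1ip lowest, 9 of the 10 lay at percentile 93.8 or higher among all genes on this length scale, and Apbb1ip lay at percentile 70.5.

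**Figure D1:**
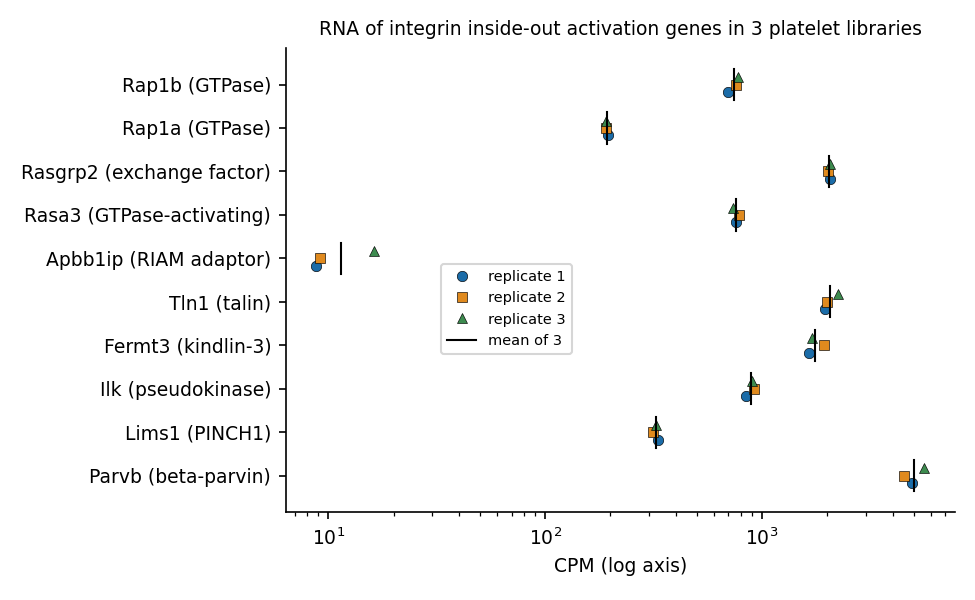
CPM of the 10 genes (horizontal log axis) in each library (symbols) with the mean of 3 (vertical bar), ordered by role. Most symbols of a gene nearly coincide; Apbb1ip sits far to the left, at 8.79 to 16.2 CPM, with replicate 3 apart from the others.

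The GTPase itself was carried mainly as Rap1b. Rap1b (Entrez gene 215449; chromosome 10, 117814597 to 117845974, reverse strand; GRCm38) was at 693, 756 and 778 CPM in replicates 1, 2 and 3, a mean of 743 ± 44.1 (SD, n = 3). Rap1a (Entrez gene 109905; chromosome 3, 105727260 to 105801394, reverse strand) was at 194, 192 and 191 CPM, a mean of 192 ± 1.73. Rap1b was higher in every library, and the values of the genes did not overlap. Per 1000 bases of gene length Rap1b stood at 383 ± 22.8 CPM and Rap1a at 149 ± 1.34, a ratio of 2.57 (log2 1.36 ± 0.10). With gene lengths from GENCODE transcripts instead of the deposited ones the ratio was 3.40.

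The reading frames of both genes are shown because they bear on how far reads of one can be told from reads of the other. The deposited gene lengths are 1294 bases for Rap1a and 1937 for Rap1b, so a large part of each gene lies outside this comparison. They are from GENCODE M21 transcripts Rap1a-201 and Rap1b-201, each 555 bases long, written 5′ to 3′ with the bases that differ between the genes in capitals. The first 120 bases, from the start codon, differ at 17 places, all 17 of them at the third codon position:
Rap1a, bases 1 to 120: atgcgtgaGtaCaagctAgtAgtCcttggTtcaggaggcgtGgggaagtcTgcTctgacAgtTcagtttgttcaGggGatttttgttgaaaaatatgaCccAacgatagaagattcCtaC
Rap1b, bases 1 to 120: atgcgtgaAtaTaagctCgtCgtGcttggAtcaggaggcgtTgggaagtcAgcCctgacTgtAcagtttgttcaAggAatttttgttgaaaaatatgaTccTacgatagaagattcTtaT
The last 120 bases, ending with the stop codon, include the part that encodes the tail with the lipid anchor of Rap proteins, and differ at 31 places:
Rap1a, bases 436 to 555: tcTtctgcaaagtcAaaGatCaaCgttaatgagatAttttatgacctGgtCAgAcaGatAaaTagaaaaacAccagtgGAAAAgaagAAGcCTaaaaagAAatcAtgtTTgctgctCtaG
Rap1b, bases 436 to 555: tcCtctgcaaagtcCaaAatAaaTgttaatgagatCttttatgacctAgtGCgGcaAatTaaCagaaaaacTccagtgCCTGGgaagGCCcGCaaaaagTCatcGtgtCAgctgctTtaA

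Over the whole reading frame 102 bases differed (81.6% identity), 79 of them at the third codon position. The last 120 bases held 12 of the 23 other differences. The longest run without a difference was 20 bases, so no word of 50 bases is common to the Rap1a and Rap1b frames. Rap1a has close copies elsewhere. Of the 506 words of 50 bases in its reading frame, 223 (44.1%) also occur in the pseudogenes Gm9392 and Rap1a-ps2. Neither pseudogene is among the genes of the tables. The level of Rap1a is therefore uncertain, since how the counting treated reads that fit several places is not given in the sources used here. For the reading frame of Rap1b 0 of 506 such words occur in another annotated gene. Words outside the reading frames were not searched.

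Among the 5 Rap genes counted together on the length scale, Rap1b made up 64.8% ± 1.81 and Rap1a 25.2% ± 1.06 (SD, n = 3). The rest fell to the Rap2 genes, close relatives with their own effectors. Rap2a was at 36.4 ± 2.91 CPM per 1000 bases, Rap2c at 14.5 ± 0.678 and Rap2b at 7.94 ± 0.949. Rap1b exceeded Rap2b 48.4-fold per length (log2 5.60 ± 0.24).

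The switch genes on either side of Rap1 were both abundant, the activator more so than the inhibitor. Rasgrp2 (Entrez gene 19395; chromosome 19, 6398957 to 6415216, forward strand) was at 2052, 2013 and 2061 CPM, the second most abundant of the 10 genes on the length scale at 931 ± 11.6 CPM per 1000 bases. Rasa3 (Entrez gene 19414; chromosome 8, 13567218 to 13677587, reverse strand) was at 759, 779.8 and 731 CPM, or 184 ± 5.92 per 1000 bases. Rasgrp2 thus exceeded Rasa3 5.07-fold per length, with log2 ratios of 2.34, 2.28 and 2.40 in the 3 libraries. By reads alone, without length, the ratio was 2.70. Rap1b lay below its own exchange factor, by 2.43-fold per length (log2 -1.28 ± 0.09).

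Each of these switch genes was the main member of its family in these preparations. Rasgrp2 made up 95.8% ± 0.610 of the 4 Rasgrp genes on the length scale. Rasgrp3, which also responds to diacylglycerol, followed at 39.4 ± 6.25 CPM per 1000 bases, and Rasgrp2 exceeded it 23.8-fold. Rasgrp1, the family member best known from T cells, was at 5.45, 5.12 and 11.4 CPM, and Rasgrp4, known from mast cells, at 0.964, 0.794 and 1.38 CPM. Rasa3 made up 98.0% ± 0.281 of Rasa1 to Rasa4, and exceeded Rasa2, the next of them, 66.4-fold (log2 6.05 ± 0.14).

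The adaptor RIAM was the exception. Apbb1ip (Entrez gene 54519; chromosome 2, 22755971 to 22875653, forward strand) gave 237, 231 and 424 counts, or 8.79, 9.17 and 16.2 CPM in replicates 1, 2 and 3. Replicate 3 was high and the other 2 libraries nearly equal. Per 1000 bases it stood at 4.49 ± 1.65 CPM (SD, n = 3), and talin exceeded it 55.3-fold (log2 6.02, 5.99 and 5.35). The gene next above it, Lims1, exceeded it 15.1-fold, or 52.0-fold with GENCODE lengths. Without replicate 3 the mean of Apbb1ip was 8.98 CPM. Its paralogue Raph1, which encodes lamellipodin, was at 11, 11 and 14 counts (exact Poisson 95% intervals 5.49 to 19.7 for 11 counts and 7.65 to 23.5 for 14), or 0.0505 ± 0.00739 CPM per 1000 bases.

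Talin and kindlin-3, the integrin-binding proteins, were both carried at high levels. Tln1 (Entrez gene 21894; chromosome 4, 43531513 to 43562583, reverse strand) was at 1941, 1983 and 2248 CPM, and Fermt3 (Entrez gene 108101; chromosome 19, 6998958 to 7019469, reverse strand) at 1651, 1929 and 1693 CPM. By reads Tln1 was higher in every library and the ranges did not overlap, although the lowest Tln1 value lay close to the highest Fermt3 value. The Tln1 gene length in the tables is 8560 bases against 2587 for Fermt3. Per 1000 bases the order turned round, again without overlap: Fermt3 was at 679 ± 57.9 CPM and Tln1 at 240.4 ± 19.5, so that Fermt3 exceeded Tln1 2.83-fold (log2 ratio of Tln1 to Fermt3 -1.50 ± 0.18). The direction of this difference rests on the length scaling, since without it Tln1 gave 1.17 times the reads of Fermt3. The paralogues Tln2, Fermt1 and Fermt2 had no row in the tables, and what decided which genes were listed is not known. Rasgrp2 and Fermt3 lie 584 kb apart on chromosome 19.

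The complex that ties kindlin to actin was uneven at the RNA level. Parvb (Entrez gene 170736; chromosome 15, 84232043 to 84315689, forward strand), which encodes the actin-binding beta-parvin, was at 4929, 4501 and 5600.3 CPM. Ilk (Entrez gene 16202; chromosome 7, 105736590 to 105742925, forward strand), the pseudokinase at the centre of the complex, was at 842, 921 and 903 CPM. Lims1 (Entrez gene 110829; chromosome 10, 58323342 to 58424691, forward strand), which encodes the LIM-domain adaptor PINCH1, was at 332, 315 and 324 CPM. The ranges of the 3 genes did not overlap.

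Per 1000 bases Parvb was at 1352 ± 149.6 CPM, Ilk at 473 ± 22.1 and Lims1 at 65.5 ± 1.73 (SD, n = 3). Parvb exceeded Ilk 2.85-fold (log2 1.51 ± 0.18), and Ilk exceeded Lims1 7.22-fold. Fermt3, which binds the complex through ILK, exceeded Ilk 1.43-fold (log2 0.52 ± 0.08). The distance of Lims1 from the others depends on its length: the tables give it 4941 bases, whereas the GENCODE transcript with its longest reading frame has 1565. With GENCODE lengths Ilk exceeded Lims1 2.39-fold, and Parvb exceeded Lims1 6.38-fold in place of 20.6-fold.

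Ilk also overlaps other genes. In GENCODE, 98.7% of its exon bases lie opposite exons of Rrp8 or Taf10. Of the 1310 words of 50 bases in its reading frame, 246 (18.8%) also occur in Gm6263. The library kit does not mark strand, so reads of opposite genes cannot be told apart. The opposite genes had few counts, 233, 197 and 237 for Rrp8 and 79, 80 and 125 for Taf10, against 22712 to 23580 for Ilk. How reads in shared exons were counted is not given, so low counts of the opposite genes do not show that Ilk was unaffected. The deposited length of Taf10 is 757 bases, less than its GENCODE overlap with Ilk. The 98.7% therefore cannot be carried over to the annotation behind the counts. For Tln1 and Fermt3 the overlap with other exons was 1.08% and 3.44% of exon bases, and for the other 7 genes it was 0.

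Among parvins and PINCH genes the paralogues were scarce. Parvg, the parvin of blood cells, was at 5.86, 6.07 and 10.7 CPM, and Parvb exceeded it 517-fold per length (log2 9.01 ± 0.35). Lims2, which encodes PINCH2, gave 6, 12 and 17 counts (exact Poisson 95% intervals 2.20 to 13.1, 6.20 to 20.96 and 9.90 to 27.2), and Lims1 exceeded it 224-fold, or 783-fold with GENCODE lengths. Parva had no row in the tables. Over the 7 pairs of a gene and its paralogue that could be computed, of 11 planned, the gene of the set was higher in all 3 libraries in all 7.

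**Figure D2:**
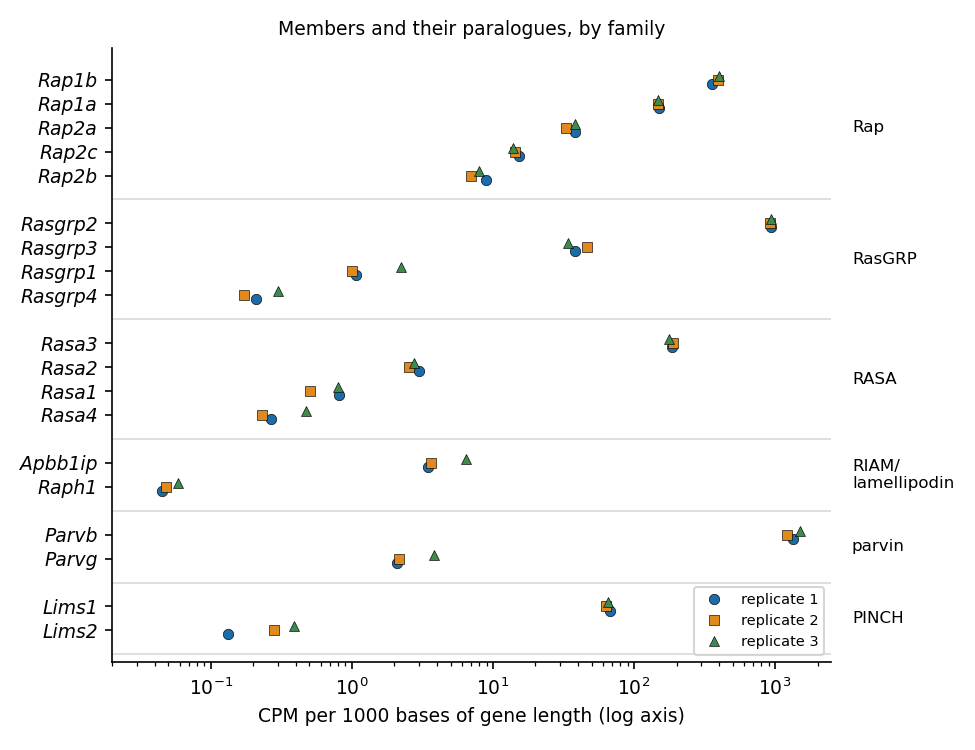
CPM per 1000 bases of gene length (horizontal log axis) of the genes of the set and their paralogues in each library (symbols), grouped by family. In every family 1 gene lies well to the right of the rest, by 2.57-fold for Rap1b over Rap1a and by more in the others; the RIAM family as a whole lies at the low end.

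On the length scale the order was Parvb, Rasgrp2, Fermt3, Ilk, Rap1b, Tln1, Rasa3, Rap1a, Lims1 and Apbb1ip. A step was taken as larger than the spread when the ratio of neighbours had 1 sign in all 3 libraries and a mean more than 2 SD from 0. All 9 steps met this, but the order came from the same libraries, so the direction of each mean step was largely fixed beforehand. The narrowest were Ilk over Rap1b at 1.23-fold (log2 0.30 ± 0.04), Rasa3 over Rap1a at 1.23-fold (0.30 ± 0.05; 2.15-fold with GENCODE lengths) and Tln1 over Rasa3 at 1.31-fold (0.38 ± 0.16). These ratios carry no test: with 3 libraries the smallest two-sided p of an exact sign-flip test is 0.25. With GENCODE lengths 43 of the 45 pairs of genes kept their order, and the exceptions were Lims1 above Rasa3 and above Rap1a. By reads without length 39 of the 45 kept it.

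**Figure D3:**
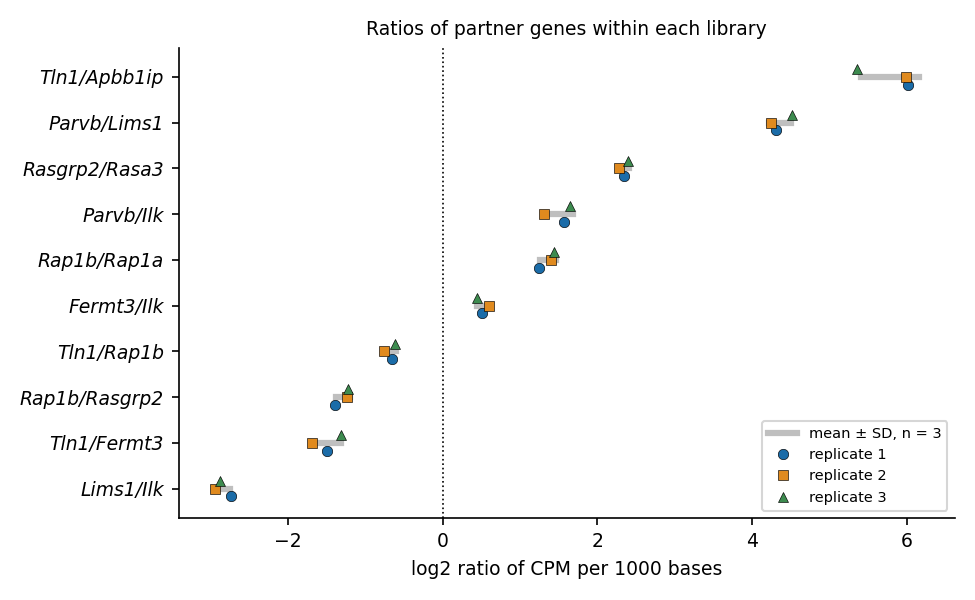
Log2 ratio of CPM per 1000 bases (horizontal axis) for 10 pairs of partner genes, in each library (symbols) with mean ± SD over 3 libraries (bar). All 10 pairs keep 1 side of 0 in every library, and the spread of the ratios is widest for Tln1 to Apbb1ip, 5.35 to 6.02.

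The 3 libraries were close to one another for 9 of the 10 genes. Their coefficients of variation ran from 0.898% for Rap1a to 11.1% for Parvb, beside a median of 5.28% over the 781 genes above 100 CPM, and Apbb1ip had 36.8% beside a median of 13.2% over the 2321 genes at 5 to 20 CPM. With TMM scaling the 9 genes ran from 1.04% for Tln1 to 13.8% for Fermt3, with Rap1a at 8.88% and Parvb at 4.99%, beside a median of 8.69% above 100 CPM, and Apbb1ip had 27.3%. A test of the spread of each gene (edgeR quasi-likelihood dispersion against the trend, with TMM scaling) called 0 of the 10 at a Benjamini-Hochberg adjusted p under 0.05, against 0.265% of the 8289 genes tested. At an unadjusted p under 0.05 it marked 1 of 10, Apbb1ip, against 4.72% of genes. For Apbb1ip p was 0.0383 and the adjusted p was 0.990 by edgeR; without replicate 3 the unadjusted p was 0.790, and without replicate 1 it was 0.0639. DESeq2 marked 0 of the 10 as dispersion outliers. Adjusted values of the other 9 genes were 0.990 or higher.

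Apbb1ip was 1.81 times as high in replicate 3 as in the mean of replicates 1 and 2. Among genes at 5 to 20 CPM 17.9% exceeded 1.5-fold in this comparison, a fold chosen after the values were seen, and their median ratio was 1.18. The other 9 genes of the set had ratios of 0.946 to 1.19. They all lie above 100 CPM, where the median ratio was 1.02 and 0.512% of genes exceeded 1.5-fold. With TMM scaling, which lowers replicate 3 by a factor of 1.10 (log2 0.14), the ratio for Apbb1ip was 1.56, and 6.85% of genes at 5 to 20 CPM exceeded 1.5-fold. The other 9 genes of the set then had ratios of 0.816 to 1.02. All values that follow are again on plain totals. T and B cell markers moved in the same direction as Apbb1ip. All 7 T cell markers and all 6 B cell markers in the tables were highest in replicate 3, with median ratios of 1.44 and 1.66. Of genes at 5 to 20 CPM, 70.7% were highest in that library. Among neutrophil markers 3 of the 4 present were highest in replicate 3, with a median ratio of 1.33. Natural killer, monocyte, platelet and endothelial markers had median ratios nearer 1. Natural killer markers were highest there for 3 of 4, with a median ratio of 1.12, and monocyte markers for 3 of 6, with 1.13. Platelet markers were highest there for 8 of 11, with a median ratio of 1.06, and endothelial markers for 2 of 6, with 1.01. Red cell markers went the other way. Of the 8 present, 0 were highest in replicate 3 and 8 in replicate 1, with a median ratio of 0.271. Cd79a, a chain of the B cell receptor, was at 12.0, 12.8 and 21.9 CPM, and Lck, a T cell kinase, at 240, 277 and 435 counts. The T cell marker Cd3e had no row in the tables. Rasgrp1 and Parvg were also higher in replicate 3, at 2.16 and 1.797 times the mean of replicates 1 and 2. The part of leukocytes in the Apbb1ip values was not tested.

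**Figure D4:**
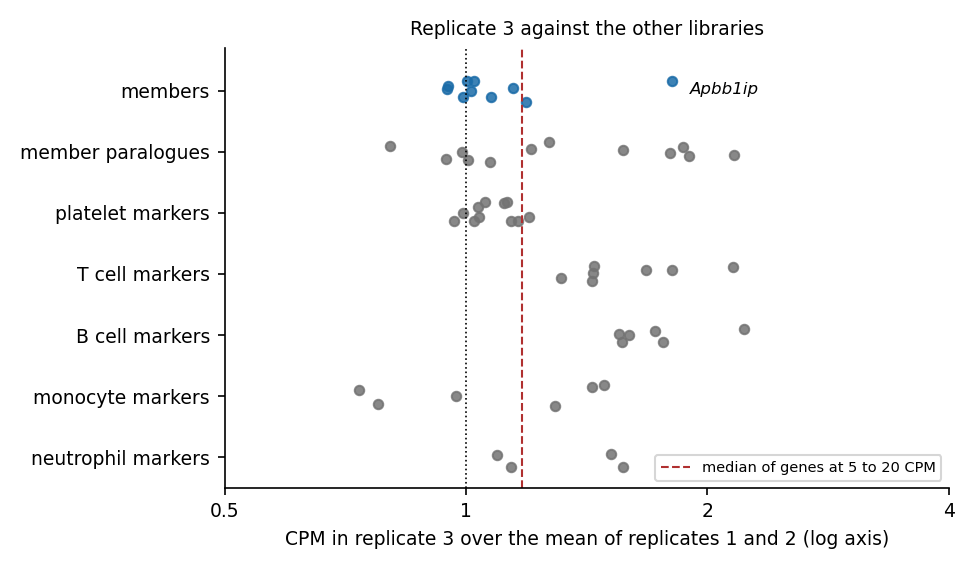
CPM in replicate 3 over the mean of replicates 1 and 2 (horizontal log axis, 1 = equal) for each gene of the set (blue), its paralogues and markers of cell types (grey); the dashed line is the median of genes at 5 to 20 CPM, 1.18. Apbb1ip, at 1.81, lies within the ranges of the paralogues and of the B and T cell markers. The other genes of the set, all above 100 CPM, lie between 0.946 and 1.19.

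Other genes of the pathway were counted in 6 lists. Of 13 other Rap exchange factors and GTPase-activating proteins 10 were in the tables, at a median of 0.459 CPM per 1000 bases. Of the 10, 7 reached 1 CPM in every library, against 77.7% of all genes. The highest were Rap1gds1, a chaperone-like factor for small GTPases, at 5.42 ± 1.01, the GTPase-activating protein Sipa1 at 4.55 ± 2.18 and the exchange factor Rapgef1 at 2.35 ± 0.937 CPM per 1000 bases. No gene of this list came within 10-fold of Rasgrp2 or Rasa3 on this scale. Rapgef3, which encodes the cyclic AMP sensor EPAC1, Rapgef5 and Rap1gap had no row in the tables. All 10 genes of this list that were present were highest in replicate 3, as were 68.7% of all genes. Sipa1 was at 11.9, 13.7 and 27.3 CPM. The edgeR test of spread called 0 of the 8 genes tested, against 0.265% of all genes tested. At an unadjusted p under 0.05 it marked 3 of 8, against 4.72% of all genes tested.

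The effectors and adhesion partners beyond the set were more abundant. All 17 of 20 that were in the tables reached 1 CPM in every library, as did 77.7% of all genes. Their median was 39.2 CPM per 1000 bases. Zyx, a LIM protein of focal adhesions, led at 1605 ± 113, followed by Skap2, an adaptor that binds ADAP and actin regulators, at 399 ± 6.05, and Capns1, the small subunit of calpains that cleave talin, at 176 ± 15.98 CPM per 1000 bases. The genes listed as restraints of integrin activation were all present, 11 of 11, at a median of 19.6. The list is a label chosen beforehand, and whether each gene restrains integrins in platelets was not tested. Flna, filamin A, which competes with talin for the beta chain tail, led the list at 132 ± 20.2 CPM per 1000 bases. Rhoa followed at 89.0 ± 7.87 and the phosphatase gene Ptpn1 at 68.7 ± 8.87.

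The input side lay below the set in RNA and above the median of all genes, 1.49 CPM per 1000 bases. All 12 genes of calcium and diacylglycerol signalling were present, at a median of 11.7 CPM per 1000 bases, led by the kinase gene Prkcq at 57.1 ± 1.64, the calcium sensor gene Stim1 at 23.6 ± 2.28 and the calcium channel gene Itpr2 at 20.0 ± 1.78. On the output side 6 of 7 integrin chains were present at a median of 254, led by Itga2b at 2169 ± 171, Itga6 at 299.8 ± 21.8 and Itgb3 at 267 ± 24.4 CPM per 1000 bases. Tln1 and Itgb3, whose proteins bind each other, were thus at 240.4 and 267. Their ranges overlapped, from 227 to 263 for Tln1 and from 240.1 to 287 for Itgb3. This overlap rests on the length scaling. By reads the ranges were apart, from 1941 to 2248 CPM for Tln1 and from 1388 to 1660 CPM for Itgb3. The paralogues of the set had 12 of 16 in the tables, at a median of 2.06 CPM per 1000 bases. Of the 12, 8 reached 1 CPM in every library, against 77.7% of all genes. In none of the 6 lists did the edgeR test of spread call a gene, but it called only 0.265% of the 8289 genes tested.

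**Figure D5:**
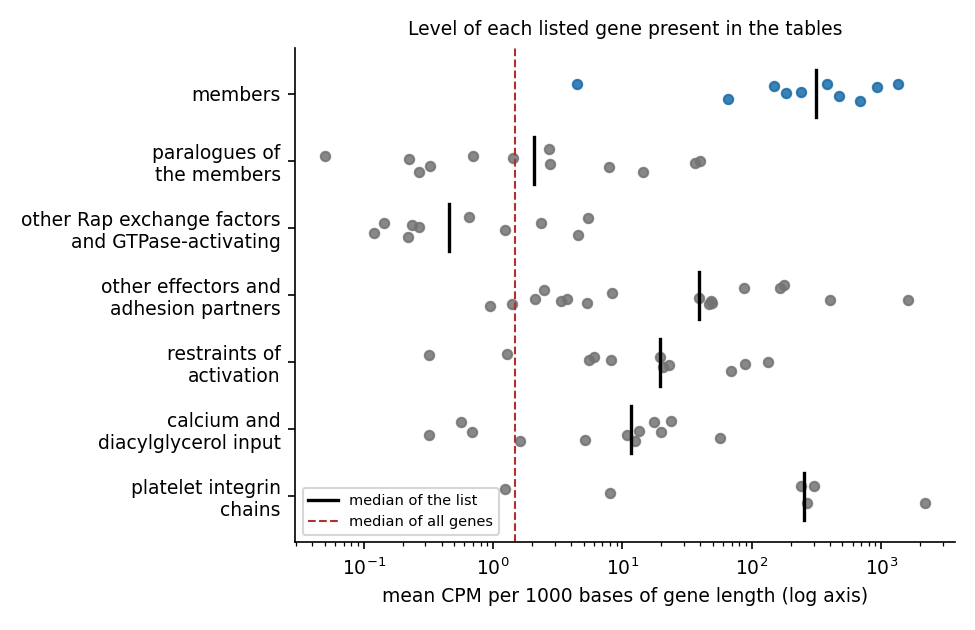
Mean CPM per 1000 bases (horizontal log axis) of each gene of the set (blue) and of 6 pathway lists (grey), with list medians (black) and the median of all genes, 1.49 (dashed). The set, at a median of 311.9, and the integrin chains, at 254, lie to the right; other Rap regulators, at 0.459, lie to the left of the median of all genes.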

How the data were processed

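For each library the authors deposited a table of unnormalized counts by Entrez number, beside the length of the gene in bases. Per the labels' protocols, platelet RNA came from a Norgen kit and went into TruSeq RNA v2 libraries, which do not mark strand. Per the submitters' processing notes, CASAVA 1.8.2, Subread, featureCounts and edgeR 3.11.5 were used with build mm10; their order, settings and annotation, and the strand setting, were not given. The 10 genes, the lists, the pairs and the rule for named genes (all 10, fixed paralogues and the 3 highest of each list per length) were chosen with earlier results of these data known; 0 columns were left unmapped.

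CPM used plain totals of counts, and genes were compared per 1000 bases of deposited length. Ratios used a prior count of 2. The spread test (edgeR 4.0.16, limma 3.58.1, R 4.3.3) fitted an intercept to the 8289 genes whose mean reached 1 CPM, with 2 residual degrees of freedom, and was tested on simulated data; DESeq2 1.42.0 was an alternative. Symbols and coordinates came from RefSeq GRCm38.p6, the assembly of mm10, and transcripts from GENCODE M21. Tables and plots were made in Python 3.11.15 (pandas 2.3.3, NumPy 2.4.6, SciPy 1.17.1, matplotlib 3.10.9).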

Additional observations from a re-analysis of the deposited data

How the results depend on the processing

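No paired analysis was possible because all libraries belong to 1 group. The total of the 10 genes, 13783 CPM, was 18511 CPM when mitochondrial ribosomal RNA and red cell genes were left out of the library total; TMM, DESeq2 size factors and leaving out each replicate moved it, and the CPM of each gene, by less than 1 SD. Apbb1ip was the 1 gene of 10 that moved by less than 1 SD without those RNAs. These are means over the 3 libraries and do not show shifts between them. The highest share of the 10 genes, 1.45% in replicate 3, is on plain totals. With TMM scaling the genes other than Apbb1ip stood in replicate 3 at 0.816 to 1.02 times the mean of replicates 1 and 2. Detection stayed at 10 of 10 at 0.5 CPM, at 5 CPM (40.7% of all genes), at 1 RPKM (54.4%), with TMM and without any replicate.

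Length decided several ratios. Without it, log2 ratios were 0.23 for Tln1 to Fermt3 and 1.47 for Tln1 to Rap1b, both reversed, as were the neighbours Rap1b to Tln1 (-1.47) and Rap1a to Lims1 (-0.75). The others without length were 1.95 for Rap1b to Rap1a, 1.43 for Rasgrp2 to Rasa3, -1.46 for Rap1b to Rasgrp2, 7.54 for Tln1 to Apbb1ip, 2.49 for Parvb to Ilk, -1.46 for Lims1 to Ilk, 3.95 for Parvb to Lims1 and 0.98 for Fermt3 to Ilk. GENCODE lengths, an alternative chosen after seeing the data, gave 1.77 for Rap1b to Rap1a, -1.71 for Rap1b to Rasgrp2, -0.15 for Tln1 to Rap1b, -1.26 for Lims1 to Ilk, 2.67 for Parvb to Lims1 and, reversed, -1.37 for Rap1a to Lims1. A prior count of 0.5 and leaving out each replicate moved no pair by 1 SD.

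The spread test called 0 of the 10 genes in every setting run. Over all genes it called 22, and 11 with plain totals, 0 with a robust prior, 49 as DESeq2 dispersion outliers, and from 2 (without replicate 1) to 29 (without replicate 3) when a replicate was left out. With a robust prior Apbb1ip was still the 1 gene of the set at an unadjusted p under 0.05 (0.0259). Its adjusted p ran from 0.783 to 0.995, and without replicate 3 its unadjusted p was 0.790; the cause was not tested. Coverage along transcripts is not in the tables, so levels per length assume even coverage.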

Other observations

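Some partners of the set outside the rule for named genes were singled out after their values were seen. Rsu1, whose protein binds PINCH1, was at 237, 229 and 237 CPM and stood at 166 ± 3.109 CPM per 1000 bases (SD, n = 3). With the deposited lengths this was above Lims1 at 65.5 ± 1.73, but by reads Lims1 was higher, at 324 ± 8.54 against 234 ± 4.39 CPM. In GENCODE the transcripts are of near-equal length, 1546 bases for Rsu1 and 1565 for Lims1, so Lims1 is also the higher with those lengths. The adaptors Skap1 and Skap2 were uneven: Skap2 was at 664, 655 and 644 CPM, and Skap1, known from T cells, at 4.23, 4.29 and 5.32 CPM. Among focal adhesion proteins that bind talin or parvin, Vcl (vinculin) was at 208, 198 and 209 CPM and Tgfb1i1 (Hic-5) at 135, 141 and 159.7 CPM. Pxn (paxillin), the relative of Hic-5, was at 210, 232 and 287 counts. Kank1 and Kank2 had no row in the tables.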
